A study of Mus musculus with 6 samples.

Results

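The peroxisome proliferator-activated receptors (PPARs) are nuclear receptors that sense fatty acids. They bind DNA with a retinoid X receptor (RXR) partner at a direct repeat of a short core sequence and switch on genes for lipid storage, fatty acid oxidation and fuel choice. In fibroblasts Ppard is the broadly expressed receptor, and Pparg is best known as the driver of fat cell formation. GCN5 (gene Kat2a) and PCAF (gene Kat2b) are related histone acetyltransferases, enzymes that acetylate histones and act as co-activators of transcription.

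The genes described are 9: the receptors Ppard and Pparg and the PPAR targets Angptl4, Plin2, Cpt1a, Acadvl, Acot1, Pdk4 and Ucp2. They were chosen by name, and every probe set that the annotation table gives to a single one of these symbols was taken. On an Affymetrix array a probe set is several short probes combined into 1 value, and some probe sets are annotated to more than 1 gene. Of the 9 genes, 8 had at least 1 such probe set, 12 probe sets in all out of 45037 that were not controls. Ucp2, a mitochondrial uncoupling protein, has no probe set named in the annotation table used and was not analysed here. A further 2 probe sets carry a member's symbol together with another gene's.

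Total RNA came from mouse embryonic fibroblasts (MEFs), connective tissue cells of the embryo that had been immortalized in culture. The 3 GCN5-/- arrays were of PCAF-/-;GCN5-/- cells and the 3 GCN5+/- arrays of PCAF-/-;GCN5+/- cells, so the controls lacked PCAF too and kept a single GCN5 allele. The design text describes a Cre or an empty vector retrovirus, and all cells went through puromycin selection; virus and genotype cannot be told apart. No array label says which virus was used, and both infected populations are written as GCN5+/- in the design text, so the groups follow the genotypes in the sample titles alone. In each group, arrays A1 and A2 are duplicate RNAs of line A and array B is of the independently immortalized line B, so at most 2 lines stand behind any p-value and part of the spread is technical. The labels give no treatment beyond this handling, and no PPAR agonist was added.

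The values are log2 signals per probe set as the authors deposited them, between 3.13 and 15.2, with array medians between 7.40 and 7.45. The targeted gene followed the labels at 2 of 3 Kat2a probe sets. Probe set 1422972_s_at stood at 7.97, 7.85 and 7.75 on the GCN5-/- arrays A1, A2 and B, against 9.31, 10.07 and 11.51 on the GCN5+/- arrays, and 1422971_at changed by -0.75 ± 0.13 (log2, SE; limma adjusted p = 0.0157). The brightest, 1426783_at, went against the labels in line A: it stood at 11.60, 11.61 and 10.99 on the GCN5-/- arrays, against 11.04, 11.23 and 11.40 on the GCN5+/- arrays, a change of 0.18 ± 0.16 (limma adjusted p = 0.575) and within line A of 0.47 ± 0.09 (limma adjusted p = 0.0232). Which part of the gene each probe set reads was not examined. All 10 fibroblast markers examined, among them Col1a1, Vim and Fn1, lay above the level filter, a mean log2 signal of 6.80. Thy1, another of them, passed it through line B, with means of 9.07 in line B and 6.12 in line A. Of 6 fat cell markers, Adipoq, Lep and Cidec lay below it in both groups, and Fabp4, Retn and Lipe lay above it, with means of 8.71, 7.89 and 7.30 over the 6 arrays.

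In GCN5-/- cells Angptl4, Plin2 and Acadvl rose and Acot1 fell, while neither receptor, nor Pdk4, nor Cpt1a passed the test. The comparison asks how these genes stood with and without GCN5, in cells that had no PCAF. The test was limma's moderated test on GCN5-/- minus GCN5+/- with cell line in the model, and a probe set was called where its p-value, adjusted over all 27022 probe sets above the level filter, was under 0.05. Of the 12 member probe sets, 10 were above that filter. Of these 10, 3 rose and 1 fell past the threshold; of all tested probe sets 4.20% did so upward and 4.31% downward (8.51% in all). The genes were listed with earlier results of these data known, so the share is a description and no test of the list.

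**Figure D1:**
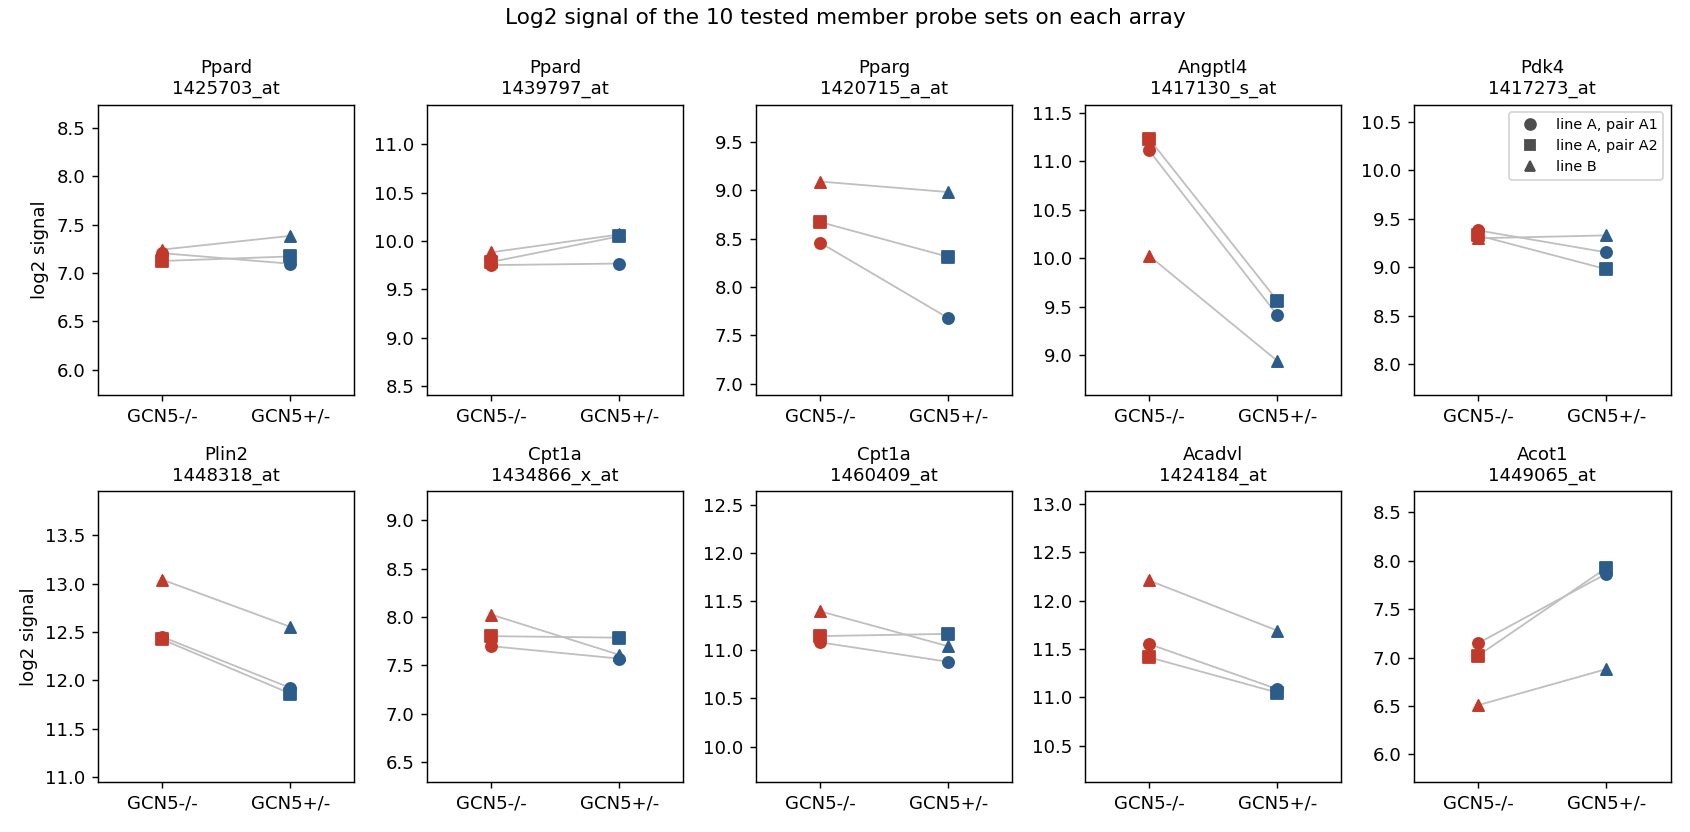
Log2 signal (vertical axes, each spanning the same range of log2 units) of the 10 tested member probe sets on the GCN5-/- arrays (left, red) and the GCN5+/- arrays (right, blue); circles and squares are line A, triangles line B, and grey lines join arrays with the same replicate name. The GCN5-/- array is the higher one in all 3 pairs for Angptl4, Plin2 and Acadvl (called) and for Pparg and Cpt1a 1434866_x_at (not called). It is the lower one in all 3 for Acot1 (called) and for Ppard 1439797_at (not called).

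Neither receptor passed the test. Ppard, which in many tissues drives fatty acid use, was read by a pair of probe sets. Probe set 1439797_at stood at 9.75, 9.78 and 9.88 on the GCN5-/- arrays A1, A2 and B, against 9.77, 10.05 and 10.07 on the GCN5+/- arrays. The groups overlapped, through GCN5+/- A1. The log2 change was -0.16 ± 0.10 (SE), with a 95% interval of -0.39 to 0.08 (limma adjusted p = 0.408). Probe set 1425703_at stood at 7.21, 7.12 and 7.24 on the GCN5-/- arrays, against 7.10, 7.17 and 7.38 on the GCN5+/- arrays. Its pairs went both ways, by 0.11 and -0.05 in line A and -0.14 in line B, and the change was -0.03 ± 0.09 (95% interval -0.24 to 0.19, limma adjusted p = 0.902). Probe set 1447902_at, annotated to Ppard together with 1810013A23Rik, was not called either, at 0.10 ± 0.12 (limma adjusted p = 0.688).

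Pparg, the receptor that drives fat cell formation, was read by probe set 1420715_a_at. It stood at 8.46, 8.67 and 9.09 on the GCN5-/- arrays A1, A2 and B, against 7.68, 8.31 and 8.98 on the GCN5+/- arrays. Each GCN5-/- array lay above its partner, but by 0.78 and 0.36 in the duplicates of line A and by 0.11 in line B, and the GCN5+/- duplicates themselves lay 0.63 apart. The log2 change of 0.42 ± 0.18 (SE; 95% interval 0.00 to 0.83) had an unadjusted p of 0.0481 and missed the threshold (limma adjusted p = 0.200). Without GCN5+/- A1 it was 0.19 (limma adjusted p = 0.476), and over all arrays left out in turn it ran from 0.19 to 0.57.

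Angptl4 had the largest change of the 10 tested member probe sets. It encodes a secreted protein that inhibits lipoprotein lipase, the enzyme that frees fatty acids from circulating triglyceride, and it is a classic PPAR target. Probe set 1417130_s_at stood at 11.11, 11.24 and 10.03 on the GCN5-/- arrays A1, A2 and B, against 9.41, 9.56 and 8.94 on the GCN5+/- arrays. The groups did not overlap: the lowest GCN5-/- array, of line B, was above the highest GCN5+/- array, of line A. Angptl4 was the 1 probe set of the 10 for which this held, where 17.0% of all tested probe sets had groups that did not overlap.

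The fitted rise of Angptl4 was 1.49 ± 0.13 on the log2 scale (SE; 95% interval 1.18 to 1.80, limma adjusted p = 0.000840), or 2.80-fold. It was 3.25-fold and 3.19-fold in the pairs of line A and 2.13-fold in line B. The second Angptl4 probe set, 1453410_at, was below the level filter, between 3.88 and 4.10 on all 6 arrays. In a fit over all 45037 probe sets its change was 0.02 ± 0.09 (limma adjusted p = 0.941), so the rise rests on 1417130_s_at alone. Lpl, the lipase that Angptl4 inhibits, changed by -0.12 ± 0.13 (limma adjusted p = 0.640).

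**Figure D2:**
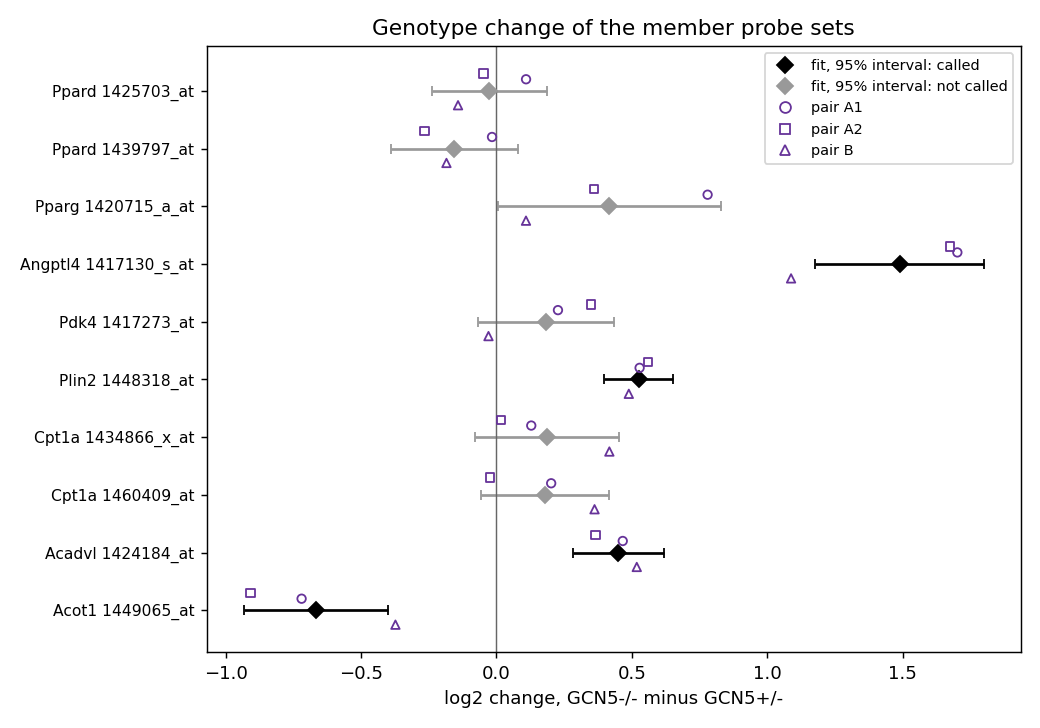
Log2 change, GCN5-/- minus GCN5+/- (horizontal axis), of the 10 tested member probe sets. Diamonds with bars are the fitted change and its 95% interval, black where called and grey where not, and open symbols are the 3 array pairs; the called values run from -0.67 for Acot1 to 1.49 for Angptl4.

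Plin2, the coat protein of lipid droplets in most cell types, rose by similar amounts in both lines. Its probe set 1448318_at stood at 12.45, 12.42 and 13.04 on the GCN5-/- arrays A1, A2 and B, against 11.92, 11.86 and 12.55 on the GCN5+/- arrays. The groups overlapped because line B ran higher than line A in both genotypes, and within each line the GCN5-/- arrays were the higher ones. The pairs differed by 0.53, 0.56 and 0.49, while duplicate arrays differed by 0.03 and 0.06. The fitted change was 0.53 ± 0.06 (log2, SE; limma adjusted p = 0.00167), or 1.44-fold.

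Acadvl encodes very long-chain acyl-CoA dehydrogenase, which takes the opening step of mitochondrial oxidation of long fatty acids. Probe set 1424184_at stood at 11.55, 11.41 and 12.21 on the GCN5-/- arrays A1, A2 and B, against 11.09, 11.05 and 11.69 on the GCN5+/- arrays. As for Plin2, the groups overlapped across lines and not within a line. The change was 0.45 ± 0.07 (log2, SE; limma adjusted p = 0.0108), with pair values of 0.47, 0.37 and 0.52.

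Acot1 went the other way. It encodes a cytosolic thioesterase that splits acyl-CoA into free fatty acid and coenzyme A. Probe set 1449065_at stood at 7.15, 7.02 and 6.51 on the GCN5-/- arrays A1, A2 and B, against 7.87, 7.93 and 6.88 on the GCN5+/- arrays. Each GCN5-/- array lay below its partner, and the groups overlapped because GCN5+/- B was below both GCN5-/- arrays of line A. The gene fell by 0.67 ± 0.12 on the log2 scale (SE; limma adjusted p = 0.0139), with pair values of -0.72, -0.91 and -0.37.

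Acot1 and its neighbour Acot2 are close copies, so probes can be shared between them and the gene behind the signal is uncertain. The 1 probe set annotated to both, 1422997_s_at, stood at 8.65, 8.28 and 8.09 on the GCN5-/- arrays A1, A2 and B, against 8.99, 9.00 and 8.24 on the GCN5+/- arrays. It was lower in all 3 pairs and not called, at -0.40 ± 0.13 (SE; limma adjusted p = 0.105). The brightest probe set of Acot2, the mitochondrial enzyme, changed by -0.29 ± 0.09 (limma adjusted p = 0.0897).

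The promoters of the called genes are shown because these genes moved in different directions and PPAR-RXR pairs bind a known repeat. RefSeq's promoter table (GRCm38.p6) gave 9 windows for 7 of the 8 genes with a probe set, each of 300 bases, 250 before the gene's start and 50 after it. Angptl4 had no entry. The 250 bases before the start are printed 5′ to 3′ on the gene's strand. Capitals in Plin2 mark a match to AGGTCANAGGTCA with at most 2 mismatches over its 12 fixed letters, capitals in Acadvl mark a single core AGGTCA, and Acot1 has neither.
Plin2 (chr4:86670060-86670309, minus strand): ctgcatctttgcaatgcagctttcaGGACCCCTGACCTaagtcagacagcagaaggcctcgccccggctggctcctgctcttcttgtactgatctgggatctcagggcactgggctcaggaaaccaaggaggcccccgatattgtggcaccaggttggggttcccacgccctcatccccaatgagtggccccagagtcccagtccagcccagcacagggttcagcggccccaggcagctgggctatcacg
Acadvl (chr11:70015429-70015678, minus strand): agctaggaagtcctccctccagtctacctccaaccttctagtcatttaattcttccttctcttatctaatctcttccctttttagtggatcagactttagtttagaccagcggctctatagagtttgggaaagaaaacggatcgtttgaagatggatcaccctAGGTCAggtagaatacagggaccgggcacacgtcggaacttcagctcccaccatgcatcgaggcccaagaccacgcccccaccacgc
Acot1 (chr12:84009252-84009501, plus strand): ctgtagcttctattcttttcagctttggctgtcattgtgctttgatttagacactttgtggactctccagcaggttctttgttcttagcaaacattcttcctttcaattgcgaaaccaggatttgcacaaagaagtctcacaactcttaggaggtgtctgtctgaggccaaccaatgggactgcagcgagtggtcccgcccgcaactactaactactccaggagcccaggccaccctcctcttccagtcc
Both motifs were searched on both strands of the full windows. The core is part of the repeat motif, but a repeat match with mismatches need not hold an intact core. In Plin2 the repeat read on the other strand begins 225 bases before the start as GGACCCCTGACCT. At most 2 mismatches were found in 1 of the 9 member windows and in 3.86% of the 32851 promoter windows in the table. The core was in 5 of the 9 member windows (Plin2, Acadvl, Cpt1a and 2 of the 3 Pparg windows) and in 16.3% of all windows. A match to these letters is a description of the sequence and not of binding.

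Cpt1a, the carnitine palmitoyltransferase that admits long fatty acids to mitochondria and controls the rate of their oxidation, was read by 3 probe sets and none was called. Probe set 1460409_at stood at 11.08, 11.14 and 11.40 on the GCN5-/- arrays A1, A2 and B, against 10.88, 11.17 and 11.04 on the GCN5+/- arrays. The duplicates of GCN5+/- cells lay 0.29 apart, more than the log2 change of 0.18 ± 0.10 (SE; 95% interval -0.06 to 0.42, limma adjusted p = 0.335). Probe set 1434866_x_at had a change of 0.19 ± 0.12 (limma adjusted p = 0.375). Its signal on the GCN5-/- arrays was 7.70, 7.80 and 8.03, against 7.57, 7.79 and 7.61 on the GCN5+/- arrays.

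The third Cpt1a probe set, 1438156_x_at, was below the level filter. It stood at 5.02, 5.04 and 5.48 on the GCN5-/- arrays, against 5.05, 5.06 and 4.86 on the GCN5+/- arrays, a change of 0.19 ± 0.13 in the fit over all probe sets (limma adjusted p = 0.541). All 3 probe sets had their largest pair difference in line B (0.36, 0.42 and 0.61), and the change was not shown to differ between lines at any of them, with limma adjusted p-values of 0.886, 0.876 and 0.464 for the genotype by line term.

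Pdk4, the kinase that switches off pyruvate dehydrogenase and so spares glucose when fatty acids are burned, did not pass the test. Probe set 1417273_at stood at 9.38, 9.33 and 9.30 on the GCN5-/- arrays A1, A2 and B, against 9.15, 8.98 and 9.33 on the GCN5+/- arrays. The line A pairs differed by 0.23 and 0.35 and the line B pair by -0.03, so the groups overlapped through GCN5+/- B. The change was 0.18 ± 0.11 (log2, SE; 95% interval -0.07 to 0.43, limma adjusted p = 0.356).

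All 4 calls rest on comparing arrays within a line. With no line term in the fit, the adjusted p was 0.206 for Angptl4, 0.493 for Plin2, 0.602 for Acadvl and 0.507 for Acot1. With line as a random block Angptl4 alone of the 10 was called, and with the line A duplicates averaged Angptl4 and Plin2 were called. The call of Acot1 was also lost without GCN5-/- A2 (adjusted p = 0.0694) or without GCN5+/- A1 (adjusted p = 0.0698).

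The lines themselves differed at 5 of the 10 tested member probe sets, 3 higher and 2 lower in line B, where 23.1% of all tested probe sets were called between lines (11.6% higher, 11.5% lower). These p-values set 1 line against 1 line. The SDs beside the means are over the 2 arrays of line B, 1 of each genotype, and the 4 of line A, duplicates of each genotype, and so hold the genotype difference too. Plin2 averaged 12.80 ± 0.35 in line B and 12.16 ± 0.32 in line A (log2, SD), a log2 difference of 0.63 ± 0.06 (SE; limma adjusted p = 0.000228). Acadvl averaged 11.95 ± 0.37 in line B and 11.28 ± 0.25 in line A, a difference of 0.67 ± 0.08 (limma adjusted p = 0.000676). Pparg averaged 9.04 ± 0.08 in line B and 8.28 ± 0.43 in line A, a difference of 0.76 ± 0.19 (limma adjusted p = 0.0232). All 3 had their highest signal in GCN5-/- cells of line B, above GCN5+/- line B by 0.49 for Plin2 and 0.52 for Acadvl, but by 0.11 for Pparg, less than the gap of 0.63 between its GCN5+/- duplicates.

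Angptl4 and Acot1 were lower in line B. Angptl4 averaged 9.48 ± 0.77 in line B and 10.33 ± 0.98 in line A (log2, SD), a difference of -0.85 ± 0.14 (SE; limma adjusted p = 0.00422). Acot1 averaged 6.69 ± 0.26 in line B and 7.49 ± 0.47 in line A, a difference of -0.80 ± 0.12 (limma adjusted p = 0.00278). Its line B mean lies below the level filter of 6.80, which the probe set passed through line A. For Angptl4 the 4 combinations of genotype and line fell in one order, with GCN5-/- line A at 11.17, GCN5-/- line B at 10.03, GCN5+/- line A at 9.49 and GCN5+/- line B at 8.94. Neighbours in that order lay 1.15, 0.54 and 0.55 apart, each more than the 0.12 and 0.15 between duplicate arrays. For Acot1 the order was different, with GCN5+/- line A highest at 7.90, GCN5-/- line A next at 7.08, then GCN5+/- line B at 6.88 and GCN5-/- line B at 6.51. The middle pair of conditions lay 0.20 apart, close to the 0.13 between its GCN5-/- duplicates.

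For the wider pathway, most lists differed between the lines about as often as all genes. Of all 12626 named genes tested, 26.7% were called between lines, 13.2% higher and 13.5% lower for line B. The share stood furthest from this among genes of fatty acid uptake and activation, where 1 was higher and 6 lower of 11 in line B, with a median log2 difference of -0.31, against 0.01 over all genes. Lpl, the lipase that Angptl4 inhibits, averaged 6.53 in line B, which is below the level filter, and 8.59 in line A, a difference of -2.06 ± 0.14 (SE; limma adjusted p = 3.96e-05) for a probe set that passed the filter through line A. The fatty acid carrier Fabp3 differed by -1.53 ± 0.10 (limma adjusted p = 2.86e-05). The list of mitochondrial oxidation genes had 4 higher and 2 lower of 20 in line B (median 0.03). Besides Acadvl, the higher ones were Acaa2, the thiolase that ends each round of oxidation (0.59), Etfa (0.42) and Acadl, a long-chain dehydrogenase (0.41). Etfa is the partner subunit of Etfb. The 2 lower ones were Cpt1c (-0.94) and Echs1 (-0.28). Of the other lists, 4 of 7 angiopoietin-like proteins and lipase partners were called between lines, 4 of 16 PPARs, RXRs and co-regulators, 3 of 12 lipid droplet genes, 3 of 9 peroxisomal genes, 3 of 10 thioesterases and 2 of 10 pyruvate dehydrogenase genes. In limma's test 0 of 9 further PPAR targets and 0 of 3 uncoupling proteins were called (2 and 0 at an unadjusted p under 0.05). Line B has 1 array per genotype, so a difference of the line and one of its culture cannot be told apart.

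**Figure D3:**
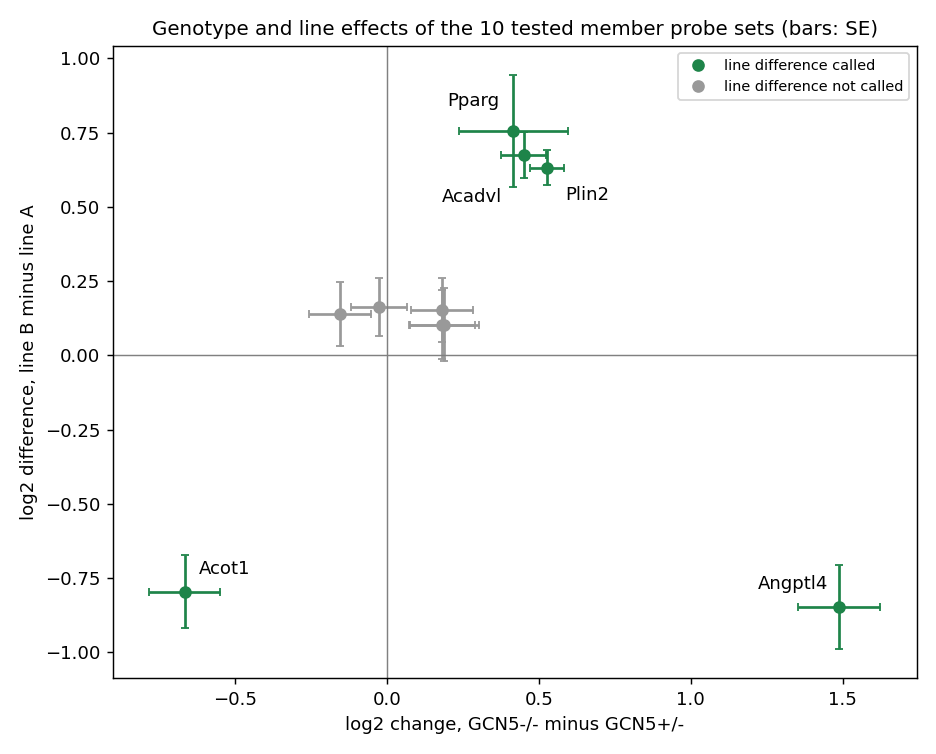
Log2 change between genotypes (horizontal axis, GCN5-/- minus GCN5+/-) against the log2 difference between lines (vertical axis, line B minus line A) for the 10 tested member probe sets; bars are standard errors and green marks a called line difference. Pparg, Acadvl and Plin2 lie together at upper right, Angptl4 stands at 1.49 and -0.85, and Acot1 at -0.67 and -0.80.

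The genotype change was not shown to differ between the lines for any member. In limma's fit with a genotype by line term, 0 of 10 were called (lowest adjusted p = 0.489), 1 of 10 had an unadjusted p under 0.05, and 0.0481% of all tested probe sets were called. Without a trend in the variance prior, 0 probe sets of the whole table were called for this term. Among these 10, the 1 with the low unadjusted p was Angptl4. Its change in line B minus that in line A was -0.60 ± 0.20 on the log2 scale (SE, limma, 95% interval -1.07 to -0.13, unadjusted p = 0.0181). Cpt1a 1438156_x_at, below the level filter and not among the 10, also had an unadjusted p under 0.05. Its term was 0.64 ± 0.18 in limma's fit over all probe sets. Within line A each genotype is 1 cell population read by duplicate RNAs, so a test there sets the difference against technical spread only and says nothing of other cultures. On that footing the same 4 probe sets were called, where 8.59% of all were. The line A changes were 1.69 ± 0.12 for Angptl4, 0.54 ± 0.06 for Plin2, 0.42 ± 0.08 for Acadvl and -0.81 ± 0.13 for Acot1, with limma adjusted p-values of 0.000225, 0.00230, 0.0245 and 0.00930.

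The rest of the pathway is given by lists, with each gene read from its brightest probe set. Over all 12626 named genes tested, 9.86% were called (5.09% higher, 4.77% lower), and the median log2 change was 0.01. In the list of PPARs, RXRs and co-regulators, 0 of 16 tested genes were higher and 3 lower, with a median of -0.14. The fatty acid carriers Fabp5 (-0.53 ± 0.07, SE; limma adjusted p = 0.00549) and Fabp4 (-0.54 ± 0.13; limma adjusted p = 0.0447), which bring ligands to the receptors, fell, and so did the co-activator Ncoa3 (-0.41 ± 0.10; limma adjusted p = 0.0386). The Fabp4 pairs differed by -0.70 and -0.75 in line A and by -0.17 in line B. The RXR partners were not called: Rxra had a log2 change of -0.17 ± 0.09 and Rxrb of 0.03 ± 0.08. Ppara and the co-activator Ppargc1a were below the level filter, with means of 6.44 and 6.04 over the 6 arrays.

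In the list of mitochondrial fatty acid oxidation, 2 of 20 tested genes were higher and 0 lower (median 0.06). This share is near the 9.86% called over all named genes. Acadvl was 1 of these 2. The other one was Etfb, a subunit of the flavoprotein that takes electrons from acyl-CoA dehydrogenases (0.35 ± 0.07, SE; limma adjusted p = 0.0209). The sister dehydrogenases for shorter chains were not called, with changes of 0.10 ± 0.07 for Acadl, -0.22 ± 0.07 for Acadm and -0.07 ± 0.08 for Acads. Peroxisomal oxidation genes had 0 of 9 called in limma's test (median -0.10, 2 at an unadjusted p under 0.05), the lowest adjusted p being 0.0680 for the fatty acid transporter Abcd3 at -0.29 ± 0.08.

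Of 11 tested genes of fatty acid uptake and activation, 2 were higher and 3 lower, and the median was -0.12. Among the acyl-CoA synthetases, which attach coenzyme A to fatty acids, Acsl6 rose by 1.54 ± 0.25 (log2, SE; limma adjusted p = 0.0111) and Acsl5 by 0.39 ± 0.07 (limma adjusted p = 0.0149). Acsl3 fell by 0.67 ± 0.09 (limma adjusted p = 0.00449), and the other 2 lower genes were Fabp4 and Fabp5. Acsl6 averaged 7.67 on GCN5-/- arrays and 6.13 on GCN5+/- arrays, which is below the level filter.

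Plin2 was the only perilipin called among the 4 tested. In the list of lipid droplet coat and lipolysis genes, 2 of 12 were higher and 0 lower, with a median of -0.07. The second was Dgat2, which makes triglyceride (0.66 ± 0.15, SE; limma adjusted p = 0.0367). The Dgat2 pairs differed by 0.90 and 0.92 in line A and by 0.17 in line B. Plin3 changed by -0.21 ± 0.08 and Pnpla2, the main triglyceride lipase, by 0.25 ± 0.10, and neither was called. Angptl4 was the 1 called of 7 tested genes in the list of angiopoietin-like proteins and lipase partners (median 0.02).

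Pdk4 belongs to the kinases and phosphatases of pyruvate dehydrogenase, where 1 of 10 was higher and 1 lower (median 0.05). The kinase Pdk1 rose by 0.63 ± 0.10 (log2, SE; limma adjusted p = 0.00844), and the phosphatase Pdp1, which opposes the kinases, fell by 0.53 ± 0.12 (limma adjusted p = 0.0322). Of 10 thioesterases, Acot9 rose by 0.31 ± 0.06 (limma adjusted p = 0.0187) and Acot1 fell. Of 9 further PPAR targets known mainly from liver, muscle and fat, 1 was called: Klf10, a zinc finger factor, rose by 0.59 ± 0.10 (limma adjusted p = 0.0132). Fgf21, Cyp4a14, Vnn1, Ucp1 and Adipoq, all on that list, were below the level filter. Of the uncoupling protein list 0 of 3 were called in limma's test (0 at an unadjusted p under 0.05), and Ucp3 changed by 0.06 ± 0.10.

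**Figure D4:**
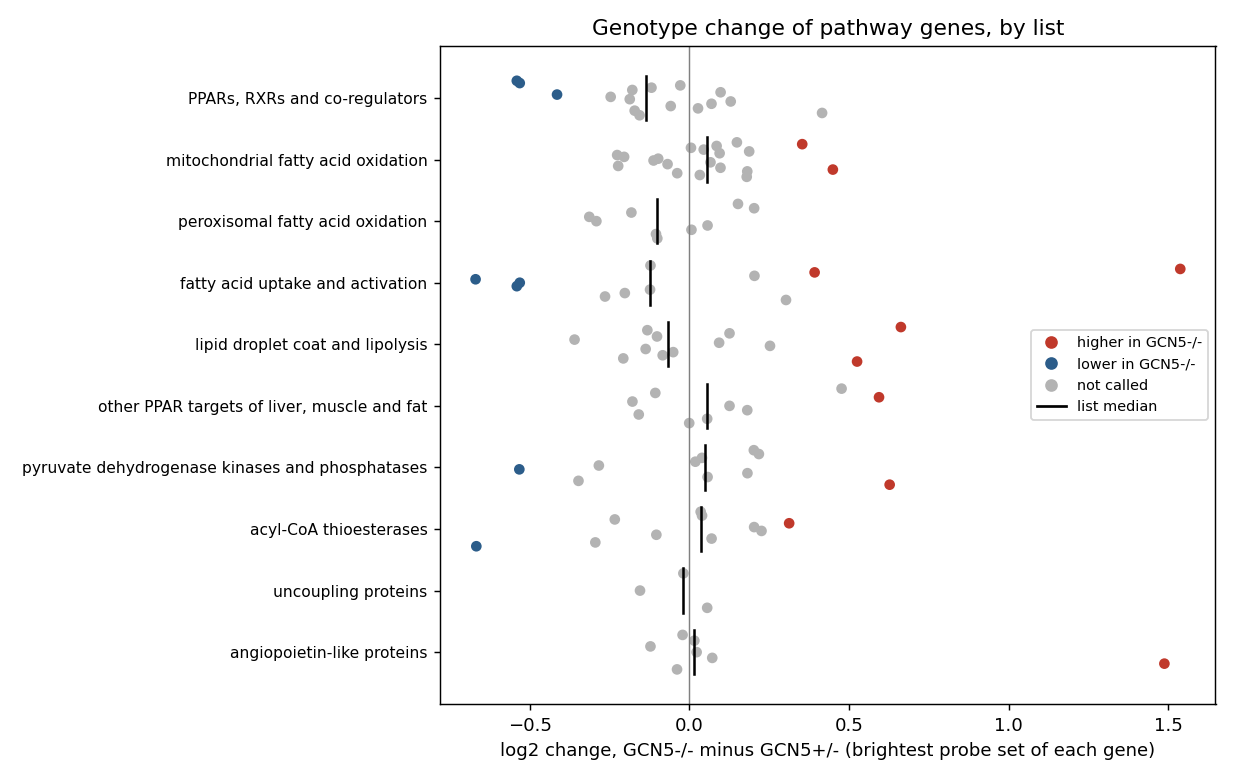
Log2 change, GCN5-/- minus GCN5+/- (horizontal axis), of every tested gene of 10 pathway lists, 1 point per gene; red is called higher, blue called lower, grey not called, and the black bar is the list median. The medians lie between -0.14 and 0.06, and 3 of the lists hold called points on both sides of 0.

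Markers of other cell types were read beside these results, since in bulk RNA a change of cell makeup and a change per cell cannot be told apart. Of 9 macrophage markers 5 were above the level filter, and 1, Cd53, was called, higher by 0.85 ± 0.09 (log2, SE; limma adjusted p = 0.00167). Of those 5, 3 had an unadjusted p under 0.05 in limma's test, and the median log2 change was 0.36. Besides Cd53, the markers Cd14, Csf1r, Cd68 and Lyz2 passed the filter, with means of 9.34, 9.18, 7.23 and 7.05. Ptprc, Itgam, Adgre1 and Tyrobp averaged 4.64, 4.93, 6.18 and 6.35 and did not pass it. The log2 of the mean signal of all 9 ran from 7.98 to 8.63 on GCN5-/- arrays and from 7.71 to 8.17 on GCN5+/- arrays. The same measure for 6 fat cell markers ran from 7.00 to 7.11 on GCN5-/- arrays and from 7.17 to 7.59 on GCN5+/- arrays, with Fabp4 the 1 called of 3 tested. Of the 10 fibroblast markers 0 were higher and 4 lower (Col1a1, Col3a1, Pdgfra and Pdgfrb, with log2 changes between -0.63 and -0.16). The log2 of the mean signal of these 10 was 13.98, 13.94 and 13.96 on GCN5-/- arrays A1, A2 and B. On the GCN5+/- arrays it was 14.11, 14.09 and 13.97, higher than the partner array in each pair, with little between them in line B. Of hepatocyte markers and of skeletal muscle markers, 0 of 2 tested were called in limma's test on each list, and 0 had an unadjusted p under 0.05. The part of such cells in the changes of Angptl4, Plin2, Acadvl and Acot1 was not tested.

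The profile of Angptl4 over the 6 arrays was set beside those of all 12626 tested genes, by the distance between log2 signals centred on each gene's mean. The nearest were Slfn2 (distance 0.376 log2 units), Cmpk2 (0.377), Ifi47 (0.410), Parp12 (0.433) and Tor3a (0.441). Their changes in GCN5-/- cells lay between 1.30 and 1.59 on the log2 scale, and values near that of Angptl4 follow from how these genes were picked. With 6 arrays of 2 lines, a likeness of profiles describes these samples and no more.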

How the data were processed

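The deposited table holds log2 signals per probe set for 45101 probe sets on 6 Affymetrix arrays; that the authors' values are on a log2 scale was read from the values. The submitters' processing notes list MAS5 for all 6 samples and Partek for 1 of them without saying what either did, and how the values were normalized, background-corrected or filtered is not given in the sources used here. The 6 arrays have nearly equal medians; where arrays are scaled to each other, a change shared by most genes is removed. Signals near the floor understate fold changes.

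The 64 control probe sets were left out. The annotation table gave 34945 probe sets 1 symbol, 932 several and 9160 none; 34741 were matched by Entrez identifier to RefSeq GRCm38.p6, used for names and promoter sequences. The test was limma 3.58.1 under R 4.3.3 (lmFit and eBayes, the prior variance following mean signal), with genotype and line as terms, on 27022 probe sets at or above the 40th percentile of mean signal (6.80), and Benjamini-Hochberg adjusted p under 0.05 was called. Values of probe sets below that level come from a fit over all 45037. The genotype by line term has 2 residual degrees of freedom, from the line A duplicates. The test was checked on simulated data. Depth does not apply to arrays, and their number limits the precision.

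The members and lists were chosen with earlier results of these data known. Named genes followed a written rule: all member probe sets, called list genes, at most 3 further genes per list, and the 5 profiles nearest to Angptl4. A few list genes below the level filter, and some that were not called, were named beyond it after their values were seen. Arrays of the same replicate name share a cell line. Their deviations from group means correlated at 0.637 (A1), 0.657 (A2) and 0.804 (B), against 0.348 and 0.430 for A1 crossed with A2. The crossed arrays are of line A too, so A1 and A2 were each paired beyond their shared line, and the reason was not tested. The main fit holds line and not this pairing, which the replicate block holds. Alternatives changed the line term, pairing, duplicates, filter, scaling, pseudocount (64 added to the unlogged signal), variance prior and probe set summary, and left out each array.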

Additional observations from a re-analysis of the deposited data

How the results depend on the processing

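Of the 183 recomputed values for single members, 166 kept their direction and their side of the threshold, 11 lost a call and 6 changed sign. The 6 were never called and arose without either line B array: with 1 array left out, Ppard 1425703_at ran from -0.066 to 0.031, Angptl4 1453410_at from -0.073 to 0.057 and Cpt1a 1438156_x_at from -0.025 to 0.26. Without 1 line B array the other adds nothing to the genotype change, so both settings give the same line A change. The mean over probe sets repeats the main value for genes with 1 probe set. The 166 hold such repeats and probe sets never called, so they do not measure how firm the calls are. The line term mattered most. Without it 69 probe sets were called in the table and 0 of the members. With line as a random block the counts were 532 and 1, and with line A duplicates averaged 709 and 2. With the replicate block in place of line they were 2627 and 4, so pairing A1 with A1 and A2 with A2 changed no member's call. Leaving out 1 array gave 645 to 2309 calls, the fewest without GCN5-/- A2 (645) and GCN5+/- A1 (703), then GCN5+/- A2 (1109) and GCN5-/- A1 (1161), and 3 to 4 member calls. Of the 4 member calls, Angptl4 was lost without a line term, Plin2 also with the random block, and Acadvl and Acot1 also with averaged duplicates; Acot1 was lost as well without GCN5-/- A2 or GCN5+/- A1. At the 60th percentile filter Acot1 was not tested. Averaged over both its probe sets, Angptl4 changed by 0.76 (limma adjusted p = 0.00302), where the second probe set lies near the floor. Line calls ran from 3025 (without GCN5+/- B) to 5379 when 1 array was left out. Genotype by line calls, 13 at first, were 27 with no filter, 4 at the 60th percentile, 4 with quantile normalization and 0 without a variance trend. Within line A 984 were called without that trend. Except where the setting itself tests fewer samples or probe sets, the cause was not tested.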
